A study of Sus scrofa domesticus with 4 samples.

Results

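Genes that make, reduce, break down or receive prostaglandins, together with the lipoxygenase ALOX15, were followed in the anterior pituitary of gilts (young sows of a Large White and Polish Landrace cross). The genes were chosen by name, with earlier results of these data known. A probe was a member where its RefSeq accession belongs, in the current pig annotation, to PTGS1, PTGS2, PTGES, PTGFR, PTGER2, PTGER3, HPGD, CBR1 or ALOX15. This gave 6 of the 9 genes, out of 3029 genes named in this way, and 10 of the 43603 gene probes of the array. No probe carried an accession matched to PTGS1, PTGER2 or HPGD, which were not analysed here. The pregnant group held 4 naturally mated gilts collected on days 15 to 16 of pregnancy with conceptuses present, and the cyclic group held 4 gilts on days 15 to 16 of the estrous cycle. On each of 4 two-colour arrays, 1 pregnant gilt was hybridised with 1 cyclic gilt. The label fields of the samples put pregnant RNA in Cy3 for arrays 1 and 3, and in Cy5 for the other two, while the text of the labelling protocol names pregnant RNA in Cy3 alone. The label fields were followed.

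Cyclooxygenases, encoded by PTGS1 and PTGS2, turn arachidonic acid into the unstable precursor of all prostanoids, and terminal synthases such as PTGES then set which prostaglandin is made. CBR1 can reduce prostaglandin E to prostaglandin F, HPGD starts their breakdown, and the receptors PTGER2, PTGER3 and PTGFR bind them at the cell surface. Lipoxygenases act on the same fatty acid by a separate route and give hydroperoxides. In the pig, prostaglandins E and F of the endometrium and conceptus take part in luteal regression and in its prevention on the days studied.

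A probe counted as measured if it had values on all 4 arrays and 4 or more of its 8 channels were well above background. The scanner software made the background call. Both conditions held for 25138 probes, among them 9 member probes of 5 genes. Of these 9 probes, 8 were well above background in all 8 channels, and the dimmer PTGER3 probe was so in 7. The PTGFR probe reached that level in 3 channels, with 1 of 4 pregnant and 2 of 4 cyclic gilts. Between 50.5% and 60.5% of all gene probes were well above background in the pregnant channels and between 52.6% and 66.6% in the cyclic channels, and 0 spots were saturated on any array. The pituitary hormone genes GH1, PRL, POMC, CGA, LHB, FSHB and TSHB, 7 of 7 listed, were well above background in all 8 channels. The posterior lobe gene OXT was also above background in all 8. In whole tissue, fewer cells of a type and less RNA per cell cannot be told apart.

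Levels below are normalized intensities, which include an added constant of 50, and differences are log2 of pregnant over cyclic. Each estimate is followed by the standard error (SE) of limma's fit over 4 arrays, which allows each probe its own dye effect and moderates the spread across probes. A looser call needs a fold of 1.2 or more and an unadjusted p below 0.05. Of the 25138 probes fitted, 0 passed an adjusted p of 0.05 (0%) and 1972 passed the looser call (7.84%), with 3.35% of probes higher and 4.5% lower. Of the 9 member probes 0 passed the adjusted threshold (limma with Benjamini-Hochberg adjustment over all probes, adjusted p between 0.605 and 0.985). At the looser call there were 2, both higher in the pregnant gilts and both of ALOX15, so that 1 gene gave the whole count. The pregnant and cyclic levels overlapped for all 10 member probes. The share of all probes with such an overlap was not counted, so nothing particular to the members is read from it.

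**Figure D1:**
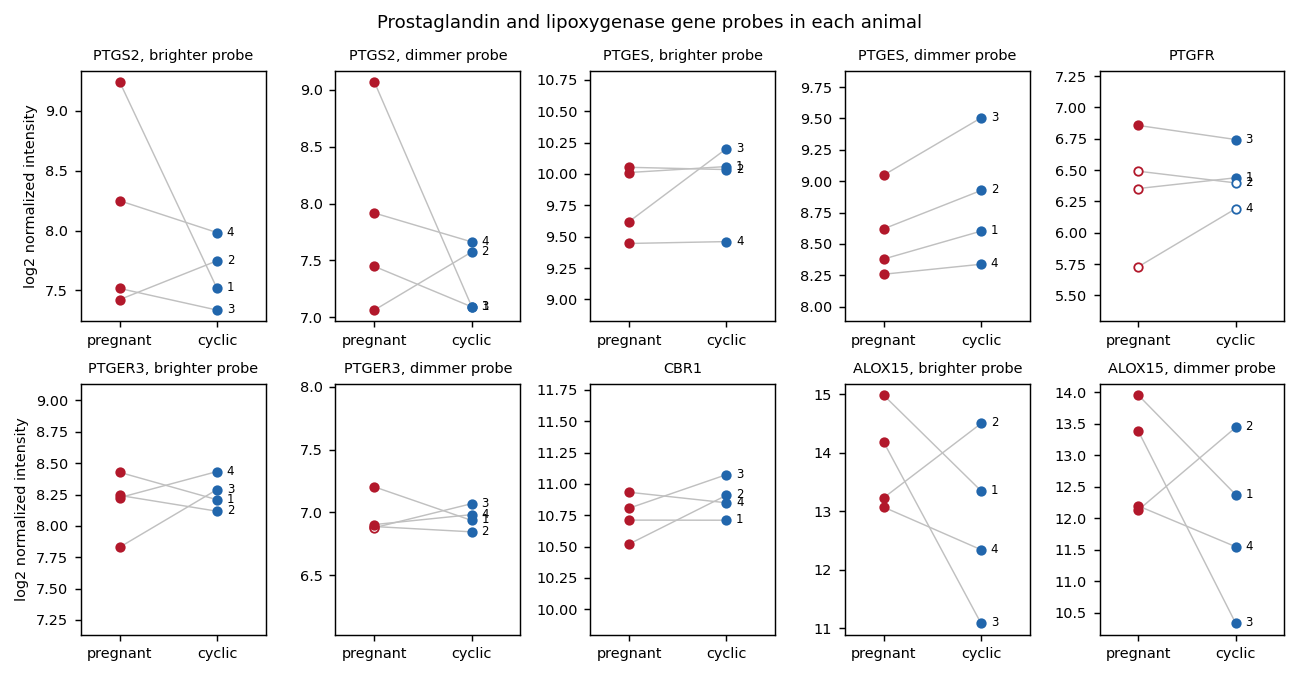
Log2 normalized intensity of each member probe, with the pregnant gilts on the left and the cyclic gilts on the right. Lines join the animals of 1 array, whose number stands at the right, filled points were well above background, and each panel has its own vertical range.

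PTGS2, the inducible cyclooxygenase that inflammatory and hormonal signals switch on, stood high in 1 pregnant gilt, which was labelled with Cy3. Its brighter probe read 605, 172, 183 and 304 in the pregnant gilts of arrays 1 to 4, against 183, 215, 162 and 253 in the cyclic gilts. The pregnant gilt of array 1 lay above all other animals, and the remaining 3 pregnant gilts spread over the cyclic range and slightly beyond it. The array ratios were 1.72, -0.32, 0.18 and 0.27. The estimate was 0.46 ± 0.27 (SE, n = 4), a fold of 1.38 whose 95% interval ran from -0.21 to 1.13 on the log2 scale (limma adjusted p = 0.630). A second PTGS2 probe gave ratios of 1.97, -0.51, 0.36 and 0.25, the same sign as the first on 4 of 4 arrays and never more than 0.25 away from it. The 2 probes target the same transcript in the same RNA and are no independent samples.

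Array 1 carried much of that estimate. Without it the brighter PTGS2 probe stood at 0.08 (limma adjusted p = 0.99999). Without array 3 it stood at 0.85 and passed the looser call (limma unadjusted p = 0.00374, adjusted p = 0.467). The range over the 4 pregnant gilts was 1.82 on the log2 scale, against 0.65 over the 4 cyclic gilts. Among all fitted probes, 1.81% had a wider range over the pregnant gilts and 35.9% a wider range over the cyclic gilts. The dye effect of this probe was -0.49 on the log2 scale of red over green, and 3.45% of fitted probes had a larger one. Its mean ratio was 0.95 over the arrays with pregnant RNA in Cy3 and -0.03 over those with it in Cy5. Those arrays held different animals, so dye and animal cannot be told apart in these values.

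PTGES, the inducible microsomal synthase that works with PTGS2 to make prostaglandin E, differed little between the groups. The brighter probe read 1032, 1062, 787 and 697 in the pregnant gilts, against 1067, 1049, 1178 and 705 in the cyclic gilts. Arrays 1, 2 and 4 had near equal levels in their 2 animals, with ratios of -0.05, 0.02 and -0.01, and array 3 alone stood at -0.58. The estimate was -0.16 ± 0.13 (limma adjusted p = 0.710), with a 95% interval from -0.47 to 0.16.

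The dimmer PTGES probe was the 1 of the 9 fitted member probes with 1 sign on 4 of 4 arrays, which 14.6% of all fitted probes had, 6.81% above 0 and 7.75% below 0. It read 333, 394, 530 and 306 in the pregnant gilts and 388, 486, 726 and 324 in the cyclic gilts, with ratios of -0.22, -0.31, -0.46 and -0.08. Within each array the pregnant gilt was the lower of the pair, while the groups overlapped. The estimate was -0.27 ± 0.11 (limma unadjusted p = 0.0535, adjusted p = 0.605). The same probe passed the looser call with all dim probes kept in the fit (limma unadjusted p = 0.0291) and with arrays centred on their median. It also passed with limma's robust prior, trended on each probe's mean red over green ratio and not on intensity. In each of these fits the probe had a limma adjusted p between 0.580 and 0.713. With pregnant RNA in Cy3 on every array it stood at -0.07.

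CBR1, the carbonyl reductase that can convert prostaglandin E to prostaglandin F, varied little between animals. It read 1677, 1469, 1791 and 1956 in the pregnant gilts, against 1676, 1923, 2156 and 1845 in the cyclic gilts. The pregnant gilt was lower on arrays 2 and 3 and about level with the cyclic gilt on arrays 1 and 4, where the ratios were 0.0008 and 0.08. The estimate was -0.14 ± 0.13 (limma adjusted p = 0.737), with a 95% interval from -0.46 to 0.17.

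Of the receptors, PTGER3, one of the receptors of prostaglandin E and coupled mainly to the inhibition of cyclic AMP formation, was measured by 2 probes. The brighter read 344, 303, 228 and 299 in the pregnant gilts and 296, 278, 313 and 346 in the cyclic gilts. Pregnant levels were the higher on arrays 1 and 2 and the lower on arrays 3 and 4, and the dimmer probe had the same sign on 4 of 4 arrays. The estimates were -0.08 ± 0.15 for the brighter and 0.01 ± 0.12 for the dimmer probe (limma adjusted p = 0.880 and 0.985). The brighter probe's sign turned to 0.09 without array 3 and to 0.0027 without array 4. Its 95% interval of -0.46 to 0.29 leaves room for moderate differences in either direction.

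PTGFR, the receptor of prostaglandin F, was mostly at background. Its probe read 81.7, 89.9, 116 and 53.1 in the pregnant gilts, against 86.7, 84.3, 107.2 and 73.1 in the cyclic gilts, where the added constant makes up much of each value. Only the animals of array 3 and the cyclic gilt of array 1 were well above background. Fitted with all dim probes kept, it stood at -0.09 ± 0.12 (limma adjusted p = 0.889), so a difference was not detectable at this signal.

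**Figure D2:**
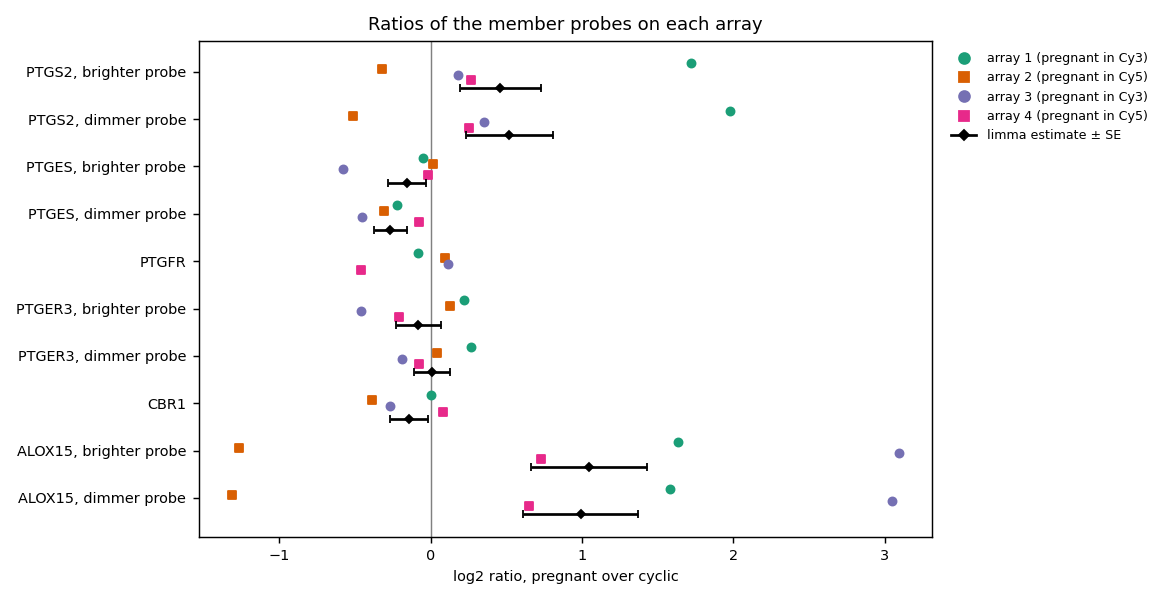
Log2 ratios of pregnant over cyclic for the 10 member probes, with 1 coloured symbol per array and, for the 9 fitted probes, limma's estimate with its SE in black. The ALOX15 probes span from below -1.2 to above 3.0 over the arrays, and array 1 stands apart for PTGS2.

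ALOX15, a lipoxygenase of arachidonic acid that is known in the pig from leukocytes and from the anterior pituitary, was the member whose ratio varied most between arrays. Its brighter probe read 32302, 9606, 18514 and 8586 in the pregnant gilts of arrays 1 to 4, against 10418, 23140.2, 2168 and 5188 in the cyclic gilts. The pregnant gilt was the higher of the pair on arrays 1, 3 and 4 and the lower on array 2, and the cyclic gilt of array 2 exceeded 3 of the 4 pregnant gilts. The ratios were 1.63, -1.27, 3.09 and 0.73, with an SD of 1.83 between arrays. The second probe gave 1.58, -1.31, 3.05 and 0.65, at most 0.08 away on any array.

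The ALOX15 estimate was 1.05 ± 0.39 (SE, n = 4), a fold of 2.07, with a 95% interval from 0.08 to 2.01. It passed the looser call at a limma unadjusted p of 0.0384 and missed the adjusted threshold at an adjusted p of 0.605. The second probe stood at 0.99 ± 0.38 (limma unadjusted p = 0.0447, adjusted p = 0.605). Flipping the signs of its 4 ratios in every way gave an exact two-sided p = 0.375, and the smallest p this design allows is 0.125.

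That SE is far smaller than the spread of the ratios. From the residuals of the probe alone, after its dye effect, the SE was 0.62, and moderation across probes brought it to 0.39. With the robust prior trended on the mean red over green ratio it was 0.996, and the looser call ended (limma unadjusted p = 0.330). The dye effect of ALOX15 was -1.32 on the log2 scale of red over green, and 0.0239% of all fitted probes had a larger one. The mean ratio was 2.36 over the 2 arrays with pregnant RNA in Cy3 and -0.27 over the 2 arrays with pregnant RNA in Cy5. Since these pairs of arrays held different animals, the dye and the animals cannot be told apart for this gene.

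Without a dye term the estimate kept its value at 1.05, with an SE of 0.62 and a limma unadjusted p of 0.134. With pregnant RNA in Cy3 on every array, as the protocol's text has it, the brighter probe stood at 1.32 (limma unadjusted p = 0.0559). Without array 3 it stood at 0.68 and without array 4 at 0.55, and neither passed the looser call. Without arrays 1 and 2 in turn it stood at 1.41 and 1.54, and each passed it.

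The levels spread widely in both groups, over dyes as well as animals. ALOX15 differed 3.76-fold between the highest and the lowest pregnant gilt, and 10.67-fold between the highest and the lowest cyclic gilt. In each group the highest gilt was labelled with Cy3 and the lowest with Cy5. A wider range over the cyclic gilts was found for 0.103% of fitted probes, and a wider range of the ratio over arrays for 0.0676%. The gene was bright, with 7.45% of fitted probes brighter, and its signals stood far above background in all 8 channels.

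Markers of other cell types were set beside these ratios. Of 12 macrophage and leukocyte markers, 8 were measured, with mean ratios of 0.05, 0.10, -0.14 and -0.16 on arrays 1 to 4. The log2 of their summed level was 12.9 to 13.7 in pregnant gilts and 13.1 to 13.7 in cyclic gilts. Of 10 platelet and red cell markers 2 were measured, with mean ratios of -0.16, -0.38, -0.08 and 0.03, and of 10 endothelial markers 5 were, with -0.21, 0.16, -0.33 and -0.03. Folliculostellate markers, 3 of 8 measured, had means of -0.20, 0.16, 0.01 and -0.02. Of 5 posterior and intermediate lobe markers 2 were measured, with mean ratios of 0.38, -0.59, -0.40 and 0.70. Of these, PCSK2, a prohormone convertase, stood at 1.43, -0.55, -0.82 and 1.56, and OXT at -0.67, -0.62, 0.02 and -0.16. The 7 hormone genes averaged -0.71, 0.84, -0.68 and -0.68, and 0, 5, 2 and 2 of the 7 lay above 0. TSHB, the beta chain of thyrotropin, carried much of these means with -1.67, 4.48, -3.02 and -4.20, and the other 6 genes averaged -0.55, 0.23, -0.29 and -0.09. The summed level of the 7 was 19.7 to 20.4 in pregnant and 20.1 to 20.7 in cyclic gilts on the log2 scale. The part of these markers in the ALOX15 result was not tested.

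The 5 named genes whose array ratios lay nearest to those of ALOX15 were AMY2, MEST, RGS4, SOCS5 and VRK1, out of 2405 candidates. Nearness was the root mean square difference over the 4 arrays, which was 0.94 for AMY2, a pancreatic type amylase gene, and 1.12 for MEST, an imprinted gene of the hydrolase fold. It was 1.18 for RGS4, which shortens G protein signals, and 1.19 for SOCS5, of the suppressors of cytokine signalling, and for VRK1, a nuclear kinase. AMY2, MEST and RGS4 were, like ALOX15, highest on array 3 and below 0 on array 2, with smaller ratios on array 3 of 1.80, 1.402 and 1.29. The 5 genes were picked by these same ratios, so a shared pattern follows from the choice and carries no weight. SOCS5 and VRK1 came near through array 3 alone, at 3.35 and 3.31.

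**Figure D3:**
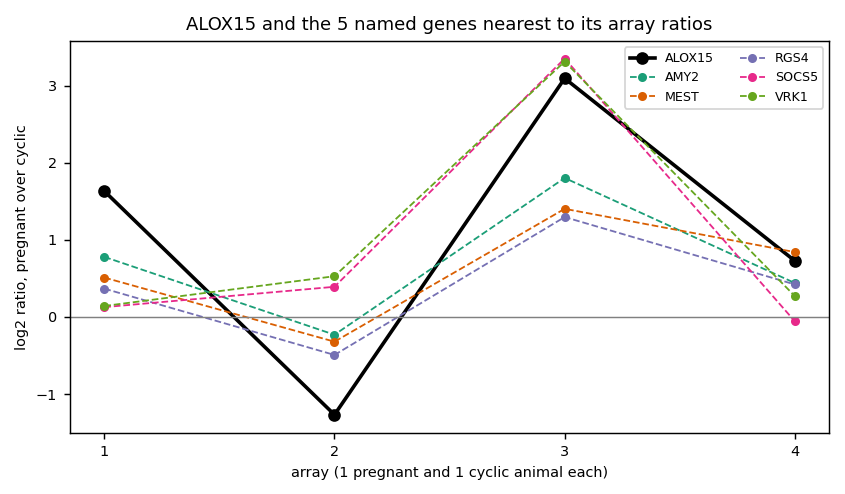
Log2 ratios of pregnant over cyclic on each array for ALOX15 (black) and the 5 named genes nearest to it by root mean square difference over 4 arrays. AMY2, MEST and RGS4 fall below 0 on array 2 as ALOX15 does, while SOCS5 and VRK1 do not. The genes were picked by the ratios shown, so their likeness to ALOX15 follows from the choice.

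Of 50 other genes of eicosanoid synthesis, transport, breakdown and reception, 15 had a probe with a matched accession and 11 were measured. They stood above 0 for 5 genes and below 0 for 6, with a median of -0.06, beside -0.0096 over all fitted probes. At the looser call 1 was lower and 0 were higher, and 0 passed the adjusted threshold (limma, adjusted p between 0.577 and 0.962). The 1 lower gene was PTGDS, the lipocalin-type synthase of prostaglandin D, at -0.999 ± 0.15 (limma unadjusted p = 0.000742, adjusted p = 0.577). Its ratios were -1.36, -1.09, -0.66 and -0.88, so that PTGDS was lower in the pregnant gilt on 4 of 4 arrays. That direction rests on the label fields: with pregnant RNA in Cy3 on every array, PTGDS stood at -0.01 and the looser call ended (limma unadjusted p = 0.981). This single orientation was fitted without a dye term, while the authors' deposited ratios matched processed signals turned by the label fields.

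Among the 3 brightest of these genes, besides PTGDS, were GPX4, the peroxidase that reduces lipid hydroperoxides, at -0.16 ± 0.11, and AKR1B1, an aldo-keto reductase able to form prostaglandin F, at -0.23 ± 0.16. Neither passed the looser call (limma unadjusted p = 0.184 and 0.206). ALOX5AP, which presents arachidonic acid to a related lipoxygenase, stood above 0 on 4 of 4 arrays by its brightest probe, at 0.37 ± 0.16 (limma unadjusted p = 0.0619). That probe's ratio on array 4 was only 0.0015, and 6.81% of all fitted probes stood above 0 on 4 of 4 arrays. The other ALOX5AP probes stood at 0.14 and 0.17 (limma unadjusted p = 0.256 and 0.203), the latter with -0.064 on array 4. AKR1CL1, a reductase of the same superfamily as AKR1B1, had ratios of -2.12, 1.96, -1.46 and -0.22 by its brightest probe, with an estimate of -0.46 ± 0.36 (limma adjusted p = 0.699). Its ratios ranged over 4.08 by that probe and over 2.02 and 2.18 by its dimmer probes, the last of which was not fitted. ALOX5AP and AKR1CL1 are named here after their values were seen.

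**Figure D4:**
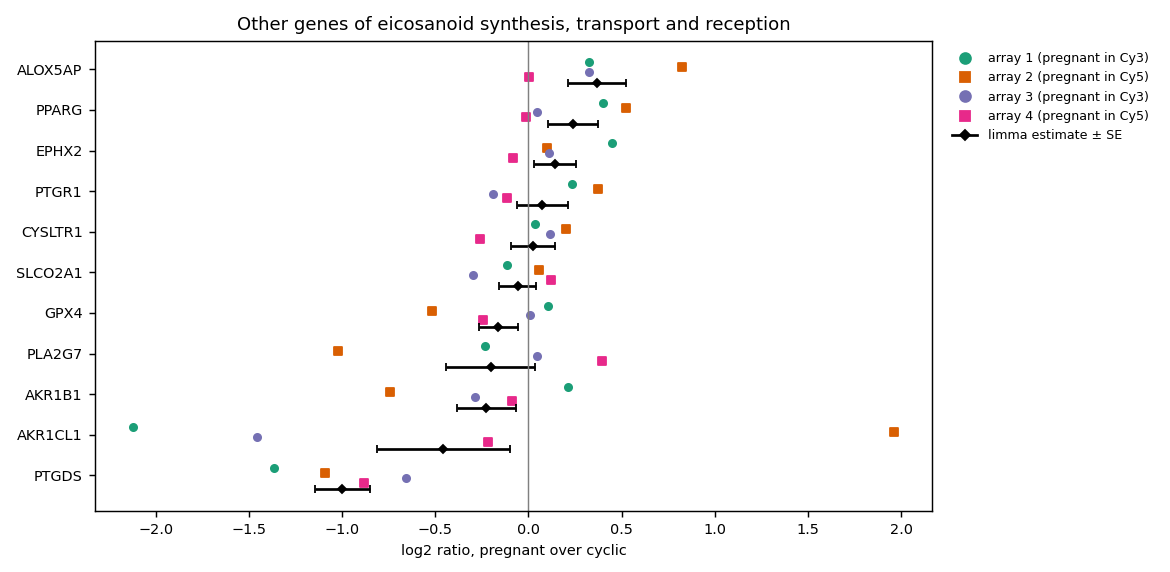
Log2 ratios of pregnant over cyclic of the 11 other measured genes of eicosanoid biology, each by its brightest probe, 1 symbol per array, with limma's estimate and its SE in black. PTGDS lies below 0 on 4 of 4 arrays, and AKR1CL1 spans from -2.12 to 1.96.

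**Figure D5:**
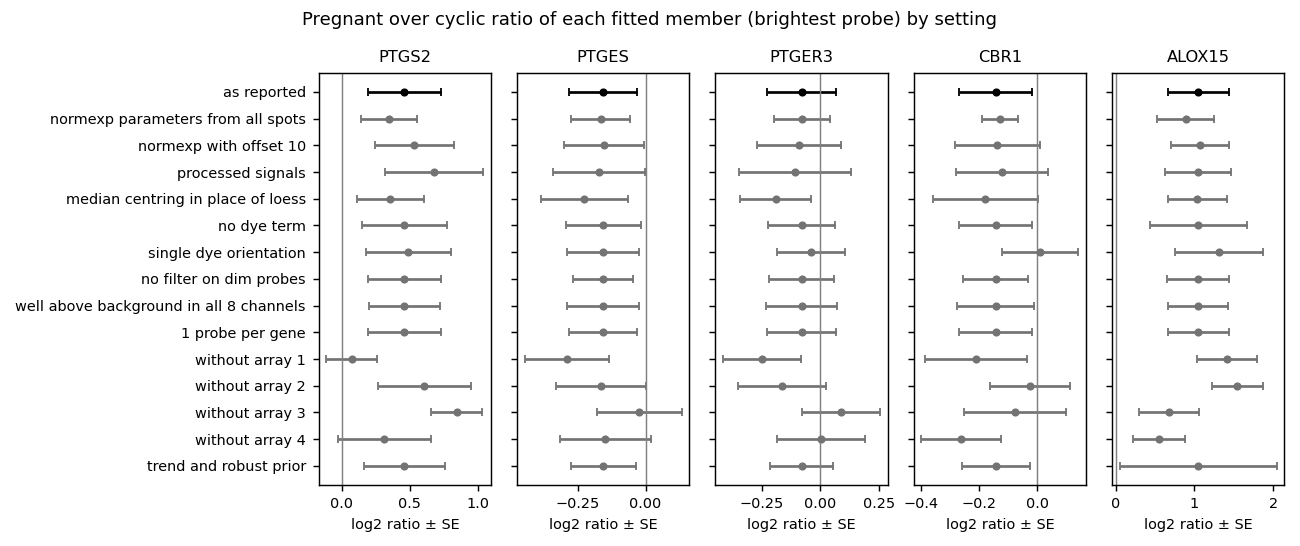
Log2 ratio of pregnant over cyclic with its SE for the brightest probe of each of the 5 fitted member genes, as reported (black) and under each alternative (grey), with a separate horizontal range per gene. ALOX15 stays above 0 throughout with a wide SE under the trend and robust prior, and PTGS2 falls close to 0 without array 1.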

How the data were processed

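Anterior pituitary RNA of 4 pregnant and 4 cyclic gilts was compared on 4 two-colour arrays. The members and gene lists were chosen with earlier results of these data known. Scanner output was deposited for each array; per the file headers it was made by Agilent Feature Extraction 10.7.3.1, and it holds the median intensity of spot and local background in each channel beside a processed intensity. How the log2 ratios of the deposited value table were made is not given in the sources used here. For the 43553 probes spotted once they equalled log2 of processed red over green, turned to pregnant over cyclic by the label fields, within 3.04e-06, with column medians of 0.15, -0.010, 0.065 and -0.073.

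Here the median intensity was corrected by normexp (offset 50, parameters estimated without spots marked as outliers), and ratios were normalized by loess (span 0.3, control spots at weight 0) with limma 3.58.1 (R 4.3.3). Outlier spots were dropped, repeated spots averaged, and probes with values on 4 arrays and well above background in at least 4 of 8 channels were fitted with lmFit and eBayes beside a dye term. Levels came from loess followed by Aquantile. Probes were named by RefSeq transcript accession through the Sscrofa11.1 table, which gave 6700 probes a symbol. A gene was given by its brightest fitted probe. Named genes were the members, pathway genes at the looser call, the 3 brightest, PTGDS, and the 5 nearest to the widest-ranging member. The files name no genome build, so no positions are given. Labels do not give batches, and the 4 arrays lay on 1 slide. The fit was run on data simulated from its own model, which checks the code and not whether that model suits these arrays.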

Additional observations from a re-analysis of the deposited data

Results flagged for a closer look

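On array 3 the brighter PTGES probe stood at -0.58 while the other 3 arrays lay within 0.05 of 0, which set that array apart from the rest. SOCS5 on array 3 stood at 3.35, and VRK1 on array 3 at 3.31, each with its other 3 arrays between -0.06 and 0.53. SOCS5 and VRK1 were named for lying near ALOX15, whose own ratio on array 3 was 3.09, so their standing apart on that array follows from how they were chosen and carries no weight. Chance alone sets 1 array apart in about 1 in 20 groups of 4, and 18 probes were looked at. The dimmer PTGES probe was at -0.46 on array 3 and did not stand apart there.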

How the results depend on the processing

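Across the alternatives run, 0 member probes passed limma's adjusted threshold in any of them. Of the 14 alternatives, 5 leave an estimate identical by construction and change its SE or p alone, and in the other 9 the brightest probes of PTGS2, ALOX15, PTGES and PTGDS kept their sign, PTGDS barely under the single dye orientation. The count of member probes at the looser call was 2 as reported. It was 0 with background parameters from all spots, with the scanner's processed signals and with no dye term. It was 1 with a single dye orientation, with 1 probe per gene and with the robust prior. That prior was trended on the mean red over green ratio and not on intensity, and was chosen after seeing the data. The count was 3 with median centring, and between 0 and 2 with 1 array left out, 0 being without array 4. The called gene changed as well: without array 3 the 2 probes were those of PTGS2, and both ALOX15 probes missed the call. With the robust prior the 1 probe was the dimmer PTGES probe. The single dye orientation turned CBR1 to 0.0095, AKR1B1 to 0.19 and GPX4 to 0.22. It moved PTGDS to -0.01, which ended the looser call. PTGER3 ran from -0.25 to 0.089 with 1 array left out, and was 0.0027 without array 4. The count of all probes at the looser call, 1972, was 761 with background parameters from all spots, and 918 to 3235 with 1 array left out, the lowest without array 1 and the highest without array 4. At the adjusted threshold, 0 as reported, it was 3 with offset 10, 1 with the robust prior and 0 to 7 with 1 array left out. Pathway genes lower at the looser call, 1 as reported, were 2 with background parameters from all spots and 1 to 2 with 1 array left out. Those higher, 0 as reported, were 1 with no dye term, 1 with the robust prior and 0 to 1 with 1 array left out. Their median, -0.06, was 0.077 with the processed signals and -0.10 to 0.088 with 1 array left out. The causes were not tested. With 4 arrays the fit has few degrees of freedom, and signal over background limits PTGFR. The reported fit on within-array ratios is itself paired by array, so that no further replicate block was added. The plot by setting shows each fitted member.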

Other observations

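The remaining 4 of the 15 genes with a probe, PLA2G1B, TBXAS1, AKR1C1 and CYSLTR2, were too dim to be fitted. TBXAS1, the synthase of thromboxane, was well above background in 3 and 0 of 8 channels on its 2 probes. CYSLTR2, a receptor of cysteinyl leukotrienes, reached it in 1 channel, while its relative CYSLTR1 reached it in 8 and stood at 0.02 ± 0.12.

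In the authors' deposited table the brighter ALOX15 probe had log2 ratios of 1.51, -1.22, 3.11 and 0.79 on arrays 1 to 4, turned to pregnant over cyclic. In the authors' deposited table the brighter PTGS2 probe stood at 2.37, -0.42, 0.35 and 0.41.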
